A study of Paeonia ostii with 18 samples.

Results

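Eco-dormant flower buds of the tree peony Paeonia ostii 'Feng Dan Bai', taken after 24 d of chilling, were compared with buds taken early in endo-dormancy, after 6 d of chilling. The members of the comparison are the arrays whose titles give these chilling times, which were 6 of the 18 arrays of the study, 3 at each time. The buds came from plants that were 4 years old at both times, and all plants stood in the cold for the days stated, with no other treatment and no other genotype. Each replicate pooled buds of 3 plants, 3 buds a plant, and each was hybridized to its own single-colour array. The other 12 arrays, taken at 0, 12, 15 and 18 d, entered the fit to estimate the spread between replicates and are shown where they bear on the timing. The names endo-dormancy and eco-dormancy are those of the labels, and no measure of bud break was analysed here.

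A bud in endo-dormancy does not grow even in warmth, because growth is blocked within the bud itself, and a long period of cold lifts that block. An eco-dormant bud has passed this stage and is held back only by its surroundings, so that warmth is enough for it to sprout. In trees and perennial herbs the passage is known for changes in gibberellin, a growth hormone whose DELLA repressor proteins are destroyed when the hormone is bound, and for changes in cell division, sugar use, redox enzymes and flowering genes.

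Each array measured 14957 probes. Spot intensities were taken to log2 and quantile-normalized, so that a difference of 1 is a 2-fold change, and a difference below is always 24 d minus 6 d unless other times are named. Between 87.7 and 92.0% of probes were well above background on the 6 d arrays and between 89.2 and 96.5% on the 24 d arrays, and no spot was saturated. Pearson correlations over all probes were 0.977 to 0.983 among the 6 d arrays, 0.968 to 0.981 among the 24 d arrays and 0.970 to 0.980 between an array of one time and an array of the other. The median SD of a probe over the 3 arrays was 0.22 at 6 d and 0.27 at 24 d. The 6 d arrays all lay on slide 1, replicate 1 of 24 d on slide 2 and replicates 2 and 3 of 24 d on slide 3. No slide held both times, so a difference between slides and a difference between times cannot be told apart within a slide. The 12 d arrays, 2 on slide 1 and 1 on slide 2, give the slide difference in the fit with slide as a block. The blocked difference of a probe is then replicate 1 of 24 d minus the mean of 6 d, less the gap between the slides at 12 d. It is called the slide-blocked difference below. It rests on 1 of the 3 arrays of 24 d, and its gap at 12 d sets 1 pool of buds against 2 others. Variation between pools is therefore part of it, so a changed size or sign cannot be assigned to the slide.

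Few genes passed the test between 6 and 24 d. The DNA methyltransferase MET1 and a ribonucleotide reductase chain, which serve the copying of DNA, had the largest falls of the named genes that passed (2.47-fold and 2.45-fold). An amino acid permease (3.22-fold), a cytochrome P450 (2.76-fold) and an adenylate kinase (2.39-fold) had the largest rises of such genes. In limma, 38 of 14956 probes passed an adjusted p of 0.05 (0.254%), of which 15 rose (0.1%) and 23 fell (0.154%). At an unadjusted p under 0.05 there were 2381 (15.9%), with 1207 higher (8.07%) and 1174 lower (7.85%). The rises spanned 0.70 to 1.86 on the log2 scale, or 1.63-fold to 3.63-fold. The falls spanned -0.67 to -1.43, apart from CUST_8760, which is too near background for a fold. For all 38 probes the 3 arrays of 24 d lay on one side of the 3 arrays of 6 d, as did those of 3709 of 14662 probes with a value on every array (25.3%). Over all probes the median difference was 0.02, and the quartiles were -0.25 and 0.28.

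**Figure D1:**
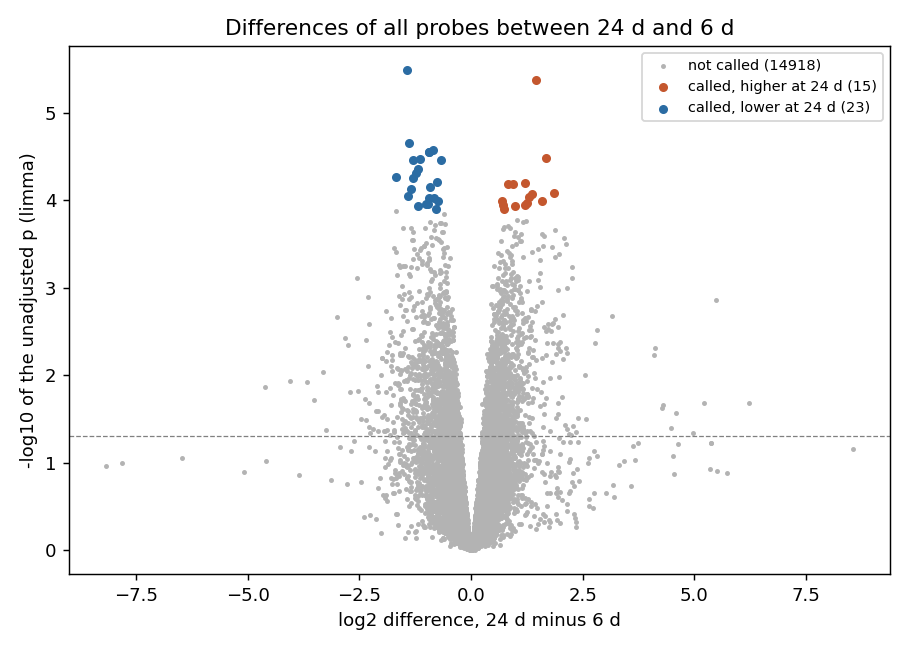
Difference of each probe between 24 and 6 d (x axis, log2) against -log10 of its unadjusted limma p (y axis), with the dashed line at a p of 0.05. The 15 called rises and 23 called falls sit above the rest at moderate sizes, and the probes with the widest differences were not called.

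These 38 calls stood close to the threshold. The lowest adjusted p was 0.031. With each 24 d array left out in turn limma called 0 probes (1852 to 2302 at an unadjusted p under 0.05), and with each 6 d array left out 1, 0 and 6. It also called 0 with the arrays scaled to their 75th percentile or not at all, with slide as a random block or replicate number as a block, and with the 6 arrays alone (1634 to 2496 at an unadjusted p under 0.05). Slide as a fixed block called 6 probes, none of them among the 38, although all 38 kept their direction. Of the 38 probes, 36 were well above background on every array of at least 1 of the times. Of the 2 others, CUST_8760 passed background in 2 of 3 arrays at 6 d and 1 of 3 at 24 d, and was lower at 24 d. The other, CUST_10373, passed it in 0 of 3 at 6 d and 1 of 3 at 24 d, and was higher. No fold is given for either. Only 4 of the 15 probes that rose and 7 of the 23 that fell carry a protein name here. Names are those of the closest match in another species that the study listed for a probe, and roles given below are those known in Arabidopsis unless stated. The samples are whole buds, so that fewer cells of a type and less RNA in each cell cannot be told apart in any value below.

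Of the 7 named genes whose fall passed the test, the largest was that of MET1, the methyltransferase that copies CG methylation onto new DNA strands. Its log2 intensities were 15.50, 15.69 and 15.68 at 6 d and 14.19, 14.54 and 14.24 at 24 d. All 24 d arrays lay more than a log2 unit below every 6 d array but for replicate 2, which lay a little closer to replicate 1 of 6 d. The difference was -1.30 (SE 0.22, 2.47-fold lower, limma adjusted p = 0.048). The small chain of ribonucleotide reductase (CUST_4182), which makes the deoxyribonucleotides that replication uses, gave 17.12, 17.12 and 17.20 at 6 d and 15.45, 15.95 and 16.17 at 24 d. It was among the brightest probes and fell by 1.29 (SE 0.23, limma adjusted p = 0.048), with replicate 1 of 24 d lowest.

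SPPA, a thylakoid protease, gave 11.57, 11.31 and 11.67 at 6 d and 10.57, 10.78 and 10.18 at 24 d, a difference of -1.01 (SE 0.19, limma adjusted p = 0.048). GLK2, a transcription factor of chloroplast development, gave 15.60, 15.38 and 15.56 at 6 d and 14.82, 14.68 and 14.54 at 24 d. It fell by 0.83 (SE 0.15, limma adjusted p = 0.048). Each was lower on every 24 d array than on any 6 d array.

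AT1G63100 belongs to the GRAS family, to which the DELLA repressors also belong, and its closest castor bean match is described as an RGL1 protein. It gave 7.10, 7.18 and 6.93 at 6 d and 6.46, 5.99 and 5.86 at 24 d, and fell by 0.97 (SE 0.18, limma adjusted p = 0.048). It is a different probe from the RGL1 probe described with the gibberellin genes. A glycoside hydrolase of the polygalacturonase family (CUST_13912), a group that cuts pectin in cell walls, gave 11.90, 12.11 and 12.11 at 6 d. At 24 d it gave 11.16, 10.87 and 11.36 and had fallen by 0.91 (SE 0.16, limma adjusted p = 0.048). ASK2, an adaptor subunit of the SCF ubiquitin ligases through which hormones direct protein breakdown, gave 14.14, 14.20 and 14.14 at 6 d and 13.17, 13.41 and 13.68 at 24 d. It fell by 0.74 (SE 0.14, limma adjusted p = 0.048), and its 6 d arrays differed by only hundredths of a log2 unit.

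AAP6, a permease that carries amino acids into cells, had the largest of the 4 named rises that passed the test. Its arrays gave 6.94, 6.81 and 7.19 at 6 d and 8.72, 8.57 and 8.72 at 24 d, a difference of 1.69 (SE 0.28, 3.22-fold higher, limma adjusted p = 0.048). A cytochrome P450 (CUST_383), of the oxidase superfamily that makes and breaks down many hormones and secondary products, gave 14.57, 14.50 and 14.89 at 6 d and 16.19, 16.18 and 15.99 at 24 d. It rose 2.76-fold (log2 1.46, SE 0.20), with the lowest limma adjusted p of any named gene at 0.031. The neighbouring probe CUST_381, also described as a cytochrome P450, gave 15.78, 15.93 and 15.55 against 16.57, 16.89 and 16.78, a difference of 1.0 that did not pass (limma adjusted p = 0.081). The match does not say which P450 either probe is.

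AMK2, an adenylate kinase that balances the cell's adenine nucleotides, gave 11.99, 11.84 and 11.62 at 6 d and 13.12, 12.78 and 13.31 at 24 d. It rose by 1.26 (SE 0.24, 2.39-fold, limma adjusted p = 0.048). UNE16, a MYB-type transcription factor, gave 12.92, 12.76 and 12.87 at 6 d and 13.52, 13.46 and 13.71 at 24 d. Its rise of 0.72 (SE 0.14, 1.64-fold, limma adjusted p = 0.048) was the smallest of those 4.

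**Figure D2:**
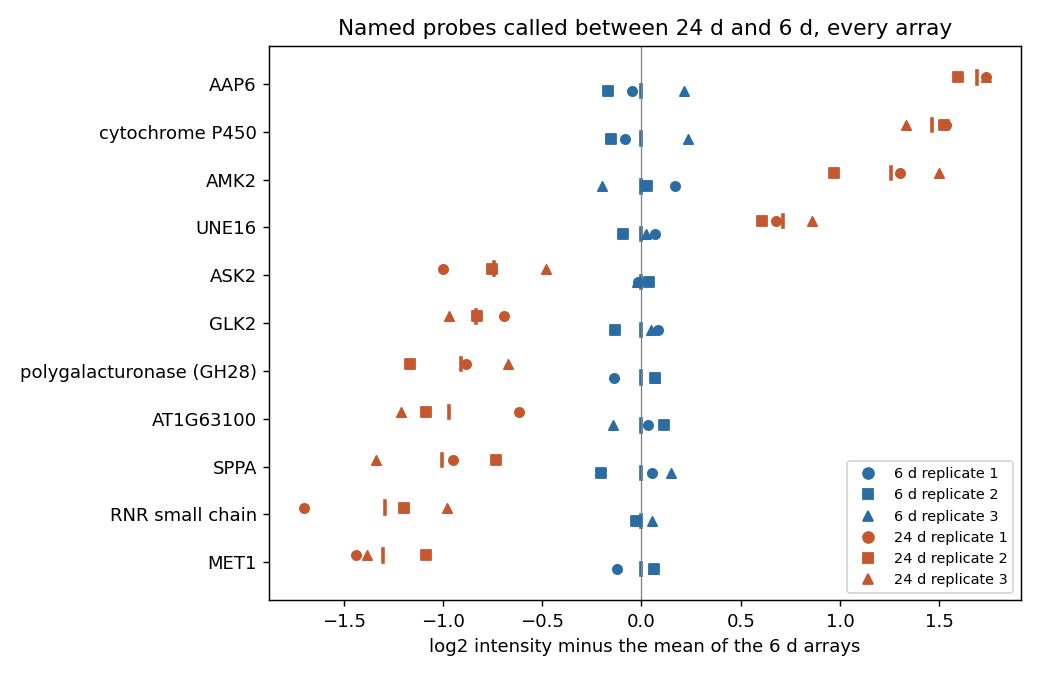
Log2 intensity of the 11 named probes called between 24 and 6 d, on each array, less the mean of the 6 d arrays (x axis). Colours mark the time, marker shapes the replicate and short bars the means. The 4 probes that rose and the 7 that fell each show the 24 d arrays on one side of every 6 d array, and the largest shift is that of AAP6 at 1.69.

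The genes that fell did not share one time course. MET1 stood 0.15 above its 6 d level at 12 d, 0.73 below it at 15 d and 0.12 below it at 18 d, so that most of its fall lay in the last step, where 24 d minus 18 d was -1.18. Ribonucleotide reductase, AT1G63100, the polygalacturonase and ASK2 likewise had larger differences for 24 d minus 18 d (-0.97, -0.92, -0.86 and -0.85) than for 18 d minus 6 d (-0.32, -0.05, -0.05 and 0.11). SPPA was the exception among the named falls, with -0.84 at 18 d and a last step of -0.17. Of the genes that rose, the cytochrome P450 stood at 0.52 above 6 d at both 15 and 18 d and then gained 0.94. AAP6 stood at 1.08 above 6 d at 15 d, at 0.52 at 18 d and gained 1.16 in the last step. These single steps did not pass the test on their own. Limma called 0 of 14956 probes between 24 and 18 d (0%), with 1794 at an unadjusted p under 0.05 (12%). It called 3 of 14957 between 18 and 6 d (0.0201%) and 0 (0%) for 12 d and for 15 d against 6 d, where 950 (6.35%) and 1083 (7.24%) probes had an unadjusted p under 0.05.

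Short of the threshold, other named probes had nearly as small a p. On the lower side these include a histone H3 (CUST_2804), the replication clamp PCNA1 (CUST_4202), HSP101 and the phospholipase D PLDDELTA, with limma adjusted p of 0.051 to 0.058. On the higher side stand MYB4, the cuticular lipid exporter WBC11, the flowering gene AGL20 and the copper/zinc superoxide dismutase CSD1, with limma adjusted p of 0.057 to 0.073. Of all probes, 343 passed a looser limit of 0.1, with 167 higher and 176 lower.

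Probes were also grouped by described function into lists of 2 to 51 members. Most members come from the study's own lists of changing genes, made from these arrays and held here in part. The counts below are therefore not independent evidence of a direction. The part held is uneven, with 738 and 744 probes of the study's clusters I and II of falling genes. Of its cluster III of rising genes only a part is held, 347 probes. Lists can thus lean to falls by how they were drawn. Of the core histones 7 are in cluster I, 2 in II and 0 in III. A share of falls above that of all probes is not a result about a list. The lists together held 5 calls at an adjusted p under 0.05 among 458 distinct probes, markers included. Over all probes 0.254% were called, 0.1% higher and 0.154% lower. UNE16 was higher, and MET1, ribonucleotide reductase, ASK2 and the polygalacturonase were lower. Since the calls were few, each list is described by how many members had an unadjusted p under 0.05 and by its median. Over all probes these were 8.07% higher, 7.85% lower and a median of 0.02.

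**Figure D3:**
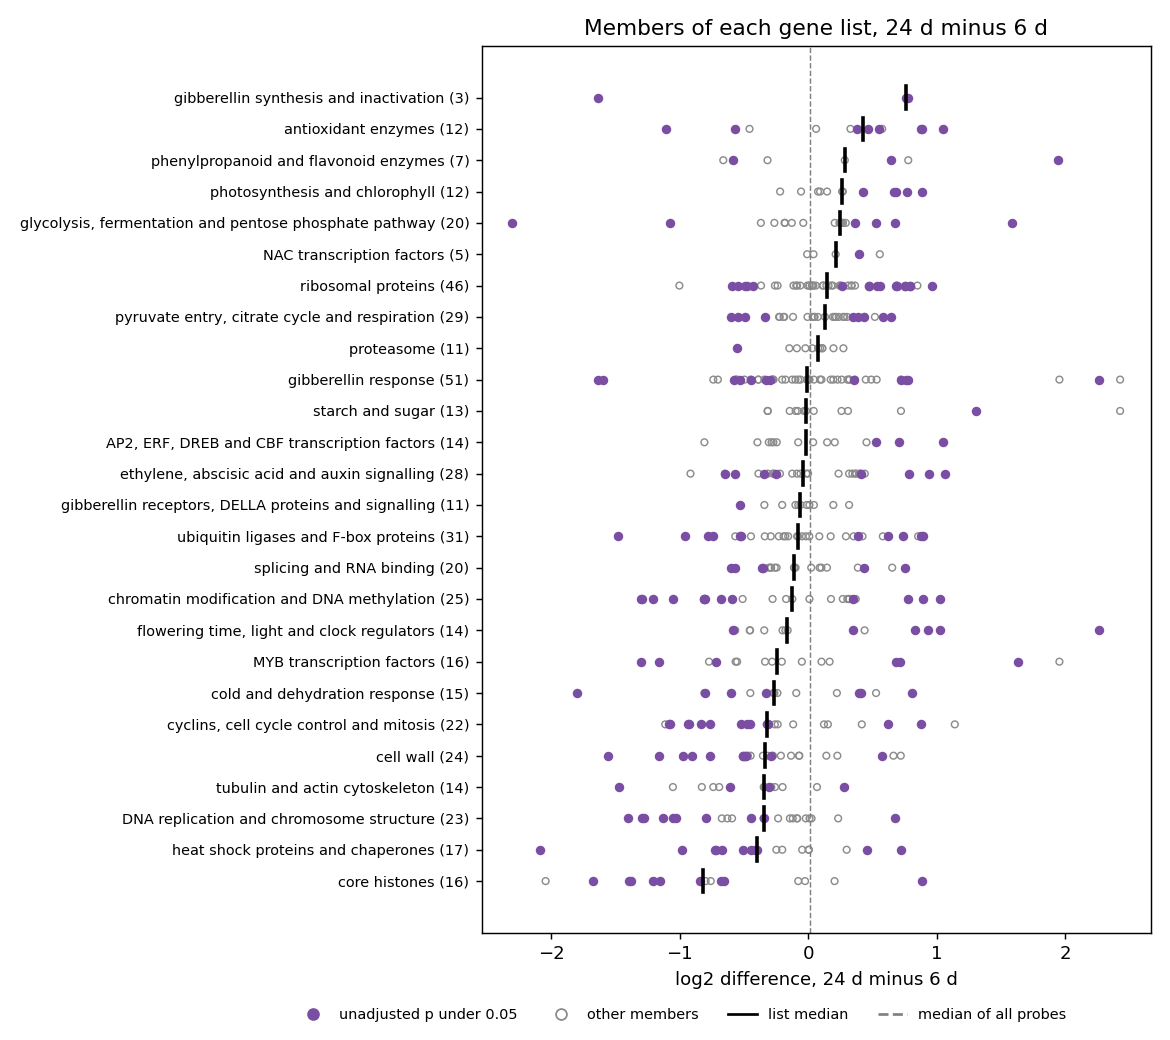
Log2 difference of each list member between 24 and 6 d (x axis), with the number of members in brackets, filled points for an unadjusted p under 0.05, a bar at the list median and a dashed line at the median of all probes, 0.02. Core histones have the lowest median at -0.82, and antioxidant enzymes the highest of the lists with more than 3 members at 0.42.

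Histones, which package newly copied DNA, had the lowest median of the lists. Of 16 core histone probes, 14 had negative differences and 8 had an unadjusted p under 0.05 on the lower side, against 1 on the higher side, and the list median was -0.82. For 10 probes the highest 24 d array was lower than the lowest 6 d array, as for 11.7% of all probes. The histone H3 probe CUST_2804 gave 16.72, 16.79 and 16.69 at 6 d and 14.58, 15.12 and 15.47 at 24 d, with a difference of -1.68 (SE 0.32, limma adjusted p = 0.051). The H2B probe HTB1 (CUST_4213) gave 15.75, 15.50 and 15.72 at 6 d and 14.43, 13.77 and 14.62 at 24 d, a difference of -1.38 (limma adjusted p = 0.081). Another probe of HTB1 (CUST_5339) gave 17.47, 17.66 and 17.41 against 16.26, 15.85 and 16.96, a difference of -1.16 (limma adjusted p = 0.124). A further HTB1 probe (CUST_4581) had a difference of 0.21 (limma adjusted p = 0.897), and another histone H3 probe (CUST_14715) had -0.02 (limma adjusted p = 0.993). The member higher at an unadjusted p under 0.05 was histone H3.2 (CUST_4606), far dimmer at 8.36, 8.04 and 8.20 at 6 d. It gave 9.05, 8.82 and 9.40 at 24 d and a difference of 0.89 (limma adjusted p = 0.069). Histone genes belong to families of near-identical copies, so a probe may read several copies. The slide-blocked median of the list was -0.51.

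The replication genes showed the same sign in most members. Of 23 probes for DNA replication and chromosome structure, 19 had negative differences, 9 had an unadjusted p under 0.05 on the lower side and 1 on the higher side, and the median was -0.35. The slide-blocked median was -0.80. PCNA1, the sliding clamp that holds DNA polymerase on its template, gave 10.58, 10.27 and 10.29 at 6 d and 8.98, 9.41 and 9.60 at 24 d, a difference of -1.05 (limma adjusted p = 0.058). Thymidine kinase (CUST_6804), which salvages thymidine for DNA, gave 11.73, 11.68 and 11.62 against 9.94, 10.13 and 10.76, a difference of -1.40 (limma adjusted p = 0.069). The condensin subunit ATSMC2 (CUST_13631) gave 13.84, 14.33 and 14.30 against 13.13, 12.57 and 12.93, a difference of -1.28 (limma adjusted p = 0.142). In all 3 the arrays of the times did not overlap. The DNA repair subunit KU70 had the only member difference above 0.5, at 0.68.

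Of 22 probes for cyclins, cell cycle control and mitosis, 16 had negative differences, with 11 at an unadjusted p under 0.05 on the lower side and 2 on the higher side, and a median of -0.32. WEE1, a kinase that holds the cell cycle until DNA is copied, gave 11.78, 12.40 and 12.25 at 6 d and 11.32, 10.88 and 11.43 at 24 d, a difference of -0.93 (limma adjusted p = 0.096). A probe whose match is named Kinesin-3 (CUST_14635) gave 13.28, 13.30 and 12.97 against 12.24, 11.67 and 12.40, with a difference of -1.08 (limma adjusted p = 0.097). The D-type cyclin CYCD2;1 gave 14.49, 14.44 and 14.66 against 14.44, 14.09 and 14.29, which all but met, and a difference of -0.26 (limma adjusted p = 0.512, slide-blocked 0.12). CYC1, a cyclin, gave 8.25, 9.72 and 9.24 against 8.30, 7.20 and 8.38, and these overlapped (difference -1.11, limma adjusted p = 0.374). On the higher side lay 2 probes of SKP1, the SCF adaptor counted here for its part in cell cycle control. The clearer (CUST_4341) gave 8.44, 8.40 and 8.33 against 9.0, 9.16 and 9.64, a difference of 0.88 (limma adjusted p = 0.073). SKP1 and ASK2 thus differed in sign, though they are members of the same adaptor family.

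The chromatin list did not move one way as a whole. Of its 25 probes 9 were lower and 4 higher at an unadjusted p under 0.05, and 12 differences were positive, with a median of -0.12. The lower members were led by MET1 and CMT3 (-1.29), another DNA methyltransferase, with the high mobility group protein HMGB6 at 16.01, 16.40 and 16.45 at 6 d and 14.83, 15.13 and 15.28 at 24 d (difference -1.21, limma adjusted p = 0.065). The Polycomb methyltransferase CLF had -0.59. The higher members were VIP4 and VRN1, known from the vernalization pathway, a bromodomain protein (CUST_2111) and a histone ubiquitination protein (CUST_4518). VIP4 gave 6.13, 6.20 and 6.21 against 7.23, 7.27 and 7.13, a difference of 1.03 (limma adjusted p = 0.094), and it was among the tightest of the probes. Of 14 tubulin and actin cytoskeleton probes 12 had negative differences, with 3 lower and 1 higher at an unadjusted p under 0.05 and a median of -0.34. TUB8 (CUST_962) gave 13.44, 14.60 and 14.02 against 12.78, 11.78 and 13.09, a difference of -1.47 (limma adjusted p = 0.133), with little between the lowest 6 d and the highest 24 d array. Another TUB8 probe (CUST_14508) had a difference of -0.26 (limma adjusted p = 0.572).

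**Figure D4:**
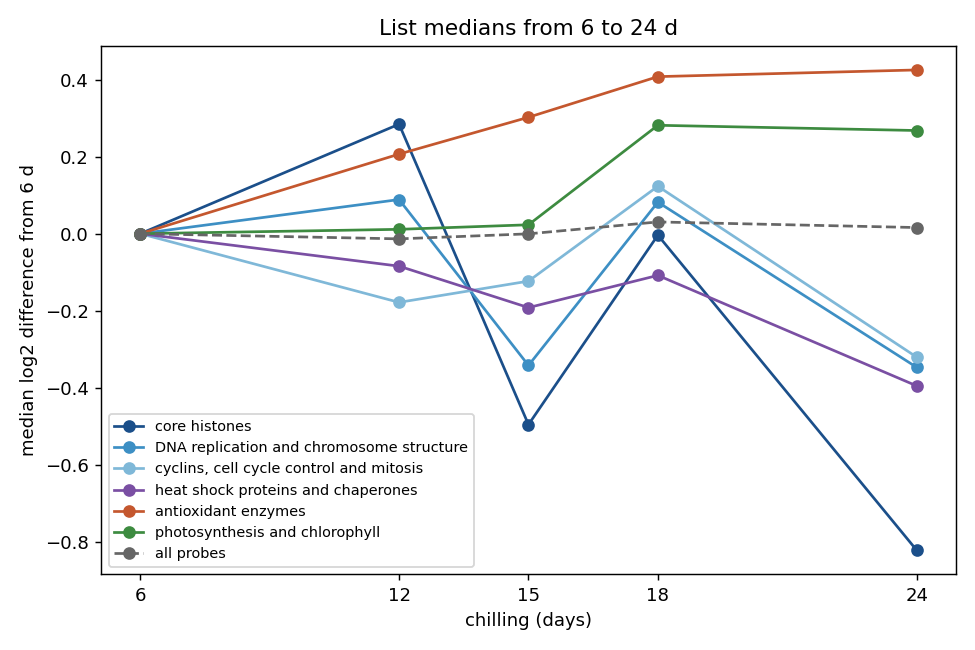
Median log2 difference from 6 d (y axis) over the members of 6 lists and over all probes, at 6, 12, 15, 18 and 24 d of chilling (x axis). The core histone median lay at 0.28, -0.50, 0.00 and -0.82 at 12, 15, 18 and 24 d, while the antioxidant median lay at 0.21, 0.30, 0.41 and 0.42.

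The medians of the division lists did not move steadily between 6 and 24 d. The histone median stood at 0.28 at 12 d, -0.50 at 15 d and 0.00 at 18 d, and the median of 24 d minus 18 d was -0.89. The replication list gave 0.09, -0.34 and 0.08 at these times and -0.74 for the last step. The cyclin list gave -0.18, -0.12 and 0.12, and -0.25 for the last step. In the histone and replication lists a low median at 15 d was followed by one near the 6 d level at 18 d and by the lowest at 24 d, while the cyclin list had no such low point at 15 d. Over all probes the medians of the same differences lay between -0.01 and 0.03.

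Heat shock proteins and chaperones, which fold other proteins and hold them soluble under stress, had lower values in most members. Of 17 probes 12 had negative differences, 9 at an unadjusted p under 0.05 against 2 on the higher side, and the median was -0.39. HSP101 gave 9.15, 9.12 and 9.04 at 6 d and 8.43, 8.49 and 8.41 at 24 d, a difference of -0.67 (limma adjusted p = 0.057) between very tight groups. HSP70 (CUST_228), among the brightest probes of the lists, gave 18.56, 18.64 and 18.82 against 18.27, 18.45 and 18.11, a difference of -0.39 (limma adjusted p = 0.166). The co-chaperone AHA1 (CUST_2227) gave 15.65, 15.71 and 15.66 against 15.02, 15.27 and 15.22, a difference of -0.50 (limma adjusted p = 0.095). Further probes of HSP70 (CUST_13398) and AHA1 (CUST_10839) had differences of 0.30 and -0.05 (limma adjusted p = 0.318 and 0.958). A heat shock protein binding probe (CUST_9942) was higher at 24 d, with 7.62, 7.79 and 7.99 against 8.62, 8.40 and 8.55 (difference 0.73, limma adjusted p = 0.087).

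Protein breakdown genes were mixed. Of 31 ubiquitin ligase and F-box probes 6 were lower and 5 higher at an unadjusted p under 0.05, and the median was -0.08 (slide-blocked -0.18). A ubiquitin-protein ligase (CUST_15175) had the widest difference, with 11.57, 11.71 and 11.59 against 9.93, 10.06 and 10.44 (-1.48, limma adjusted p = 0.065). Of 11 proteasome probes none was higher and 1, the lid subunit ATS9, was lower at an unadjusted p under 0.05. It gave 15.21, 15.29 and 15.27 against 14.66, 14.64 and 14.81, a difference of -0.56 (limma adjusted p = 0.071), while the list median was 0.08 and its slide-blocked median -0.26.

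Among the genes for which the study designed RT-PCR primers are 3 of gibberellin synthesis and inactivation that the array also measured. Only the primers for these 3 are shown, as designed. They carry the study's gene names and were not matched to the array probes, and no strand or position is given.
GA2 primer 1: ccgagtctatttgaattaatggaaccg
GA2 primer 2: tcattagagggacatctgaaggacac
GA20OX primer 1: gcagatgtcactacactccaaagc
GA20OX primer 2: accacttcaagggaatcaagcaaatc
GA2OX8 primer 1: cagacccaccatttcaagaaacctac
GA2OX8 primer 2: actctcgtgaagttctggctatctc
By these names the first pair is for kaurene synthase, which makes the diterpene from which gibberellins are built, the second the oxidase that completes the active precursors, and the third an oxidase that inactivates gibberellins.

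The enzymes of gibberellin synthesis differed in sign. GA20OX gave 13.13, 13.78 and 14.11 at 6 d and 11.89, 11.55 and 12.68 at 24 d. All 24 d arrays lay below all 6 d arrays, and the difference of -1.64 (SE 0.53) did not pass the test (limma adjusted p = 0.154). GA2 gave 8.02, 7.78 and 7.76 at 6 d and 9.12, 8.58 and 8.20 at 24 d. It lay higher on every 24 d array, by 0.78 in the mean (limma adjusted p = 0.243). GA2OX8 gave 10.88, 10.35 and 10.14 against 11.29, 10.96 and 11.41, again without overlap, and a difference of 0.76 (limma adjusted p = 0.162). Each of the 3 had an unadjusted p under 0.05.

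Their courses across the times differed as well. GA20OX was at 0.36, 0.77 and 0.51 below its 6 d level at 12, 15 and 18 d, with wide spread between arrays, and a difference of -1.12 for 24 d minus 18 d. GA2 was near its 6 d level until 15 d (-0.24 and 0.16) and at 0.67 at 18 d. GA2OX8 was at 0.79 at 12 d, 0.61 at 15 d, 0.01 at 18 d, and gained 0.75 from there to 24 d. The slide-blocked differences for 24 against 6 d were -1.14 for GA20OX, 1.09 for GA2 and 0.69 for GA2OX8.

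**Figure D5:**
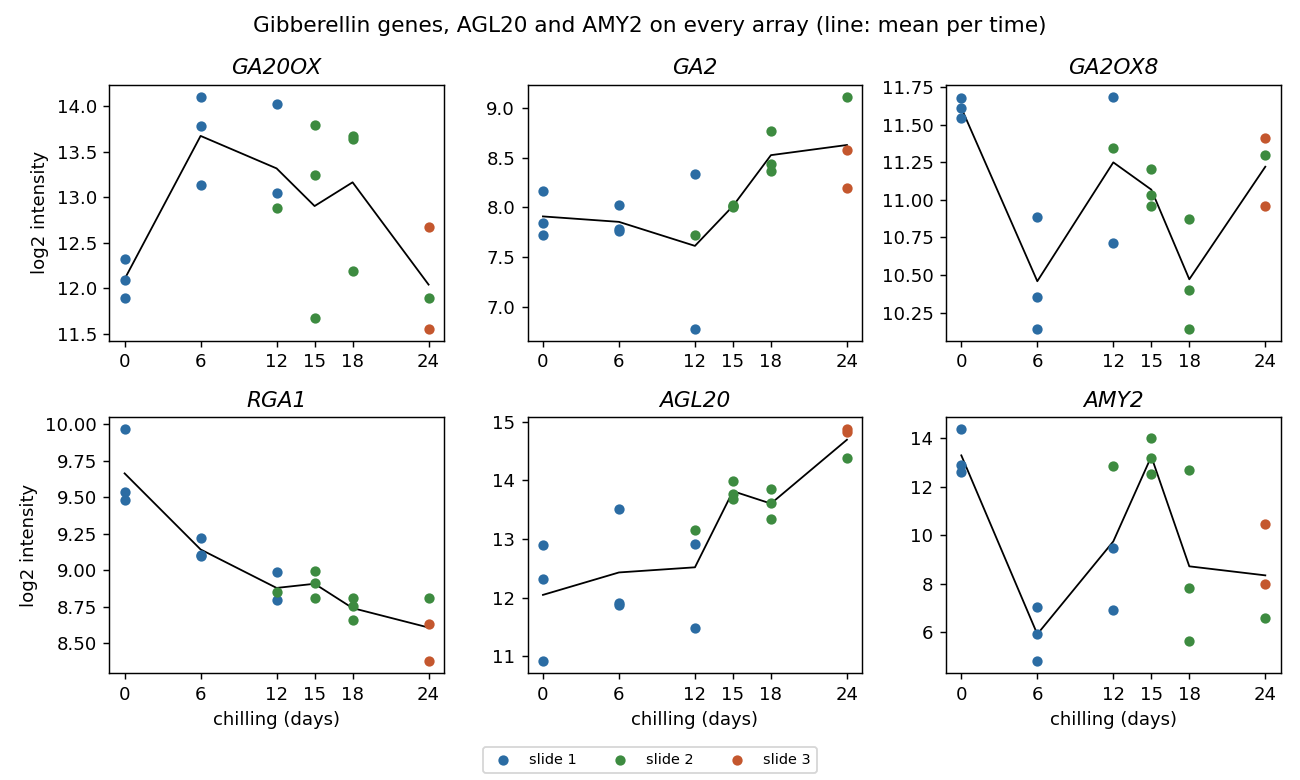
Log2 intensity (y axis) on every array of GA20OX, GA2, GA2OX8, RGA1, AGL20 and AMY2 over the chilling times (x axis, days), coloured by slide, with a line through the mean of each time. GA20OX and RGA1 lie lower on every 24 d than on every 6 d array and GA2, GA2OX8 and AGL20 higher, while the AMY2 arrays overlap.

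No probe in the list of gibberellin receptors and repressors passed the test, which does not show them to be level. Of 11 probes for receptors, DELLA proteins and other signalling steps, 1 had an unadjusted p under 0.05, and the list median was -0.06 (slide-blocked -0.29). That probe was RGA1, a DELLA repressor, which gave 9.22, 9.11 and 9.10 at 6 d and 8.81, 8.38 and 8.64 at 24 d (difference -0.53, limma adjusted p = 0.105). The DELLA probes RGA2 and RGL1 gave differences of -0.06 and -0.01 (limma adjusted p = 0.945 and 0.988), with overlapping arrays. RGL1 arrays were 12.61, 13.19 and 13.18 at 6 d and 12.63, 13.20 and 13.13 at 24 d. Both signs turned with other settings. The receptors GID1A and GID1B had differences of 0.20 and -0.34 (limma adjusted p = 0.753 and 0.715), and SPY, a negative regulator, had -0.20 (limma adjusted p = 0.638). The slide-blocked difference of GID1A was -0.55.

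Among all 51 probes of the study's gibberellin response table, 5 were higher and 7 lower at an unadjusted p under 0.05, the median was -0.01 (slide-blocked -0.18), and none was called. The widest difference was that of AMY2, an alpha-amylase that gibberellin induces in germinating cereal seeds. Its arrays were 5.94, 7.02 and 4.79 at 6 d and 6.57, 7.98 and 10.48 at 24 d. They overlapped, the difference of 2.43 had an SE of 1.65 (limma adjusted p = 0.517), and the slide-blocked difference was -4.02. The 12 d arrays used for that block gave 6.90 and 9.47 on slide 1 and 12.87 on slide 2. The value of 4.79, on replicate 3 of 6 d, was not well above background. AMY2 means at 0, 12, 15 and 18 d were 13.30, 9.75, 13.25 and 8.72, beside 8.34 at 24 d.

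AGL20, known as SOC1, is the MADS-box gene on which flowering signals converge, and gibberellin and cold both raise it. It gave 13.51, 11.90 and 11.87 at 6 d and 14.38, 14.83 and 14.88 at 24 d, a difference of 2.27 (limma adjusted p = 0.072). Replicate 1 of 6 d stood apart from its fellows and lay still below every 24 d array. AGL20 was 0.09, 1.39 and 1.18 above its 6 d level at 12, 15 and 18 d, so that part of the difference was present by 15 d. The slide-blocked difference was 0.99, and at 12 d the array on slide 2 exceeded those on slide 1 by 0.96. Of 14 flowering time, light and clock probes 5 were higher and 1 lower at an unadjusted p under 0.05, with a median of -0.17. The higher ones were AGL20, VIP4, VRN1, COL1 (0.94) and the blue light receptor CRY2, which gave 14.43, 14.60 and 14.46 against 15.04, 15.55 and 15.40 (difference 0.83, limma adjusted p = 0.137). The lower one was the clock gene PRR5 at 9.31, 9.0 and 9.32 against 8.75, 8.78 and 8.35 (difference -0.58, limma adjusted p = 0.099). A probe for the floral repressor FLC, designed from the Arabidopsis sequence, was above background on none of the arrays, so that it gives no level.

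Redox enzymes, which clear hydrogen peroxide and superoxide, had higher values in most members. Of 12 antioxidant probes 9 had positive differences, 6 were higher and 2 lower at an unadjusted p under 0.05, and the median was 0.42 (slide-blocked 0.28). CSD1 gave 6.73, 6.52 and 6.75 at 6 d and 7.92, 7.34 and 7.88 at 24 d, a difference of 1.05 (limma adjusted p = 0.073). The glutathione peroxidase GPX2 gave 12.56, 12.38 and 12.80 against 13.55, 13.42 and 13.43, a difference of 0.89 (limma adjusted p = 0.104). The ascorbate peroxidase APX4 gave 13.25, 13.02 and 13.31 against 13.98, 14.03 and 14.21, a difference of 0.88 (limma adjusted p = 0.101). The thioredoxin reductase NTRA had the opposite sign, with 14.13, 14.05 and 14.06 against 12.96, 12.87 and 13.10 (difference -1.10, limma adjusted p = 0.063). The catalase CAT1 overlapped (difference -0.46, limma adjusted p = 0.659, slide-blocked 0.37), and the glutathione reductase GR1 had a difference of 0.06 (limma adjusted p = 0.879), whose sign turned when single arrays were left out.

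Of 20 probes of glycolysis, fermentation and the pentose phosphate pathway 4 were higher and 2 lower at an unadjusted p under 0.05, with a median of 0.25 and a slide-blocked median of -0.06. The pyruvate kinase AT2G36580, which catalyses the last step of glycolysis, gave 6.08, 6.98 and 6.18 at 6 d and 7.75, 7.79 and 8.46 at 24 d, a difference of 1.59 (limma adjusted p = 0.087). The phosphofructokinase PFK3 gave 6.31, 6.15 and 6.07 against 6.71, 6.78 and 7.07 (difference 0.68, limma adjusted p = 0.174). ADH1, the alcohol dehydrogenase of fermentation, gave 6.87, 6.16 and 6.80 against 4.86, 3.75 and 4.31. Its difference was -2.30 (limma adjusted p = 0.154), and 1 of its 3 arrays at 24 d was well above background. A phosphoglycerate mutase (CUST_9916) passed background in 1 of 3 arrays at 6 d and 0 of 3 at 24 d, so no fold is given. The slide-blocked difference of PFK3 was -0.17.

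Of 29 probes of pyruvate entry, the citrate cycle and respiration, 5 were higher and 4 lower at an unadjusted p under 0.05, with a median of 0.13 (slide-blocked 0.00052). A NADH dehydrogenase of the respiratory chain (AT2G20360) gave 15.84, 15.87 and 15.85 against 16.12, 16.18 and 16.43, a difference of 0.39 (limma adjusted p = 0.141) and a slide-blocked difference of -0.01. The malate dehydrogenase MDH gave 15.38, 15.24 and 15.07 against 14.72, 14.64 and 14.70, a difference of -0.55 (limma adjusted p = 0.076). Of 13 starch and sugar probes 1 was higher and none lower at an unadjusted p under 0.05, with a median of -0.02. That probe, the plastid glucose phosphate carrier GPT2, had a difference of 1.31 (limma adjusted p = 0.149), and 1 of its 3 arrays at 6 d was above background. The amylase AMY1 had 0.72 (limma adjusted p = 0.444), AMY3 -0.31 (limma adjusted p = 0.50) and the sucrose carrier SUT4 -0.10 (limma adjusted p = 0.779).

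Of 12 photosynthesis and chlorophyll probes 10 had positive differences and 5 were higher, none lower, at an unadjusted p under 0.05, with a median of 0.27. The list median against the 6 d mean was 0.0091 on replicate 1 of 24 d, which lay on slide 2, and 0.45 and 0.44 on replicates 2 and 3, which lay on slide 3. The slide-blocked median was 0.11. PSBO2, of the oxygen-evolving complex, gave 17.16, 16.90 and 16.99 against 17.71, 17.75 and 17.64, a difference of 0.69 (limma adjusted p = 0.150). A photosystem I subunit (CUST_14304) gave 12.71, 12.64 and 12.69 against 13.16, 13.60 and 13.93, a difference of 0.88 (limma adjusted p = 0.110). Of these probes 9 also form the marker list of green tissue, and all 9 were above background on every array of both times. Their summed intensity was 174072 to 207154 at 6 d and 278234 to 304947 at 24 d, without overlap. PSBO2 alone made up 67.9 to 77.1% of these sums, and without it they were 51556 to 61514 at 6 d and 63730, 83889 and 80040 at 24 d. The mean was higher at 24 d for 8 of the 9, beside 51.6% of all probes. For 3 of the 9 every 24 d array lay above every 6 d array, beside 13.6% of all probes. The list median against the 6 d mean was 0.0063 on replicate 1 of 24 d and 0.56 and 0.49 on replicates 2 and 3. Their part in the other results was not tested. The 4 shoot apex and organ primordium markers summed to 161414 to 189199 at 6 d and 161786 to 199820 at 24 d, which overlapped. By their differences 2 were higher and 2 lower at 24 d. KAN2, with a 6 d mean of 6.75 on the log2 scale, adds little to the sums. The member BAM1 (CUST_4284) carries a symbol that the study uses for a beta-amylase. Its place among these markers, in their sums and in their counts is therefore uncertain. All 4 were above background on every 6 d array and 3 on every 24 d array, the exception being KAN2, which sets the lower side of organs, with 1 of 3 arrays. Of the 2 flowering MADS-box markers, AGL20 was above background on every array and the FLC probe gave no level.

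Cell wall genes had lower values in most members. Of 24 probes 19 had negative differences, with 10 lower and 1 higher at an unadjusted p under 0.05 and a median of -0.33. Beside the polygalacturonase, a fasciclin-like arabinogalactan protein (CUST_5944) gave 8.0, 8.78 and 8.14 at 6 d and 7.23, 7.07 and 7.14 at 24 d (difference -1.16, limma adjusted p = 0.081). The xylosyltransferase XXT5, which builds xyloglucan, gave 14.52, 14.44 and 14.30 against 13.90, 13.91 and 14.01 (difference -0.48, limma adjusted p = 0.114). The pectin synthase GAUT1 (CUST_12546) gave 13.90, 13.94 and 13.93 against 13.48, 13.49 and 13.27 (difference -0.51, limma adjusted p = 0.126). POM1, a chitinase-like protein needed for cellulose, had the one difference on the higher side (0.58, limma adjusted p = 0.280). Its slide-blocked difference was -0.12, and the slide-blocked median of the list was -0.18.

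Transcription factor families held members of both signs. Of 16 MYB probes 3 were higher and 3 lower at an unadjusted p under 0.05, with a median of -0.24 and a slide-blocked median of 0.38. MYB4, a repressor of phenylpropanoid synthesis, gave 9.17, 8.82 and 9.21 at 6 d and 10.46, 10.91 and 10.75 at 24 d, a difference of 1.64 (limma adjusted p = 0.057). PAP2, an activator of anthocyanin synthesis, gave 15.01, 14.82 and 14.87 against 12.89, 13.60 and 14.30, a difference of -1.30 (limma adjusted p = 0.110). In the same branch the flavonoid enzyme TT5 had a difference of 1.95 (limma adjusted p = 0.127), and 1 of its 3 arrays at 6 d was above background. Of 7 phenylpropanoid and flavonoid probes 2 were higher and 1, the regulator TTG1, lower at an unadjusted p under 0.05, with a median of 0.29. TTG1 had no value on replicate 3 of 24 d, so its difference of -0.58 (limma adjusted p = 0.084) rests on 2 arrays of that time. The list median was -0.07 without that array.

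Of 14 AP2, ERF, DREB and CBF probes 3 were higher and none lower at an unadjusted p under 0.05, with a median of -0.02 and a slide-blocked median of 0.54. TINY2, of the DREB group, lay higher on every 24 d array than on any 6 d array, with a difference of 0.53 (limma adjusted p = 0.155). CBF4 (CUST_11130), of the family that switches on cold response genes, had a difference of -0.81 with overlapping arrays (limma adjusted p = 0.521). Of 15 cold and dehydration probes 3 were higher and 4 lower at an unadjusted p under 0.05. The median was -0.26 and the slide-blocked median 0.10. ICE1, which activates the CBF genes in the cold, gave 8.45, 8.87 and 7.87 against 7.35, 6.20 and 6.25, without overlap. Its difference was -1.80 (limma adjusted p = 0.152) and its slide-blocked difference 1.56, so that the sign turned. The dehydrin ERD14, at 18.61, 18.56 and 18.51 against 18.49, 18.14 and 18.08, had a difference of -0.32 (limma adjusted p = 0.238). Of 5 NAC probes 1 was higher at an unadjusted p under 0.05, the dehydration-responsive RD26 with 0.40 (limma adjusted p = 0.311).

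Of 28 ethylene, abscisic acid and auxin signalling probes 4 were higher and 4 lower at an unadjusted p under 0.05, with a median of -0.04. An auxin-repressed protein, whose relatives are known to be abundant in resting buds, gave 16.16, 16.50 and 16.56 at 6 d and 17.66, 17.47 and 17.29 at 24 d, a difference of 1.06 (limma adjusted p = 0.108). An auxin efflux carrier probe (CUST_11527) gave 5.81, 5.92 and 6.33 against 7.0, 6.94 and 6.48 (difference 0.78, limma adjusted p = 0.154). HVA22A, an abscisic acid-induced protein, had a difference of 0.41 (limma adjusted p = 0.231), and a protein phosphatase of the group that includes abscisic acid co-receptors (CUST_15046) had -0.65 (limma adjusted p = 0.206, slide-blocked 0.22).

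Of 46 ribosomal protein probes 32 had positive differences, with 12 higher and 5 lower at an unadjusted p under 0.05, and a median of 0.15. The slide-blocked median was 0.03, and the list median against the 6 d mean was 0.02 on replicate 1 of 24 d and 0.17 and 0.32 on replicates 2 and 3. RPL9 (CUST_86) gave 13.78, 13.69 and 13.60 at 6 d and 14.20, 14.25 and 14.68 at 24 d, a difference of 0.69 (limma adjusted p = 0.154). Probe rps4 (CUST_8658) gave 10.63, 10.43 and 10.09 against 11.24, 10.93 and 11.26, a difference of 0.76 (limma adjusted p = 0.140). Of 20 splicing and RNA binding probes 2 were higher and 4 lower at an unadjusted p under 0.05, with a median of -0.11. An RNA binding protein (CUST_11180) gave 15.54, 15.49 and 15.62 against 14.96, 14.92 and 15.08, a difference of -0.57 (limma adjusted p = 0.068).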

How the data were processed

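The intensity values deposited from the scanner had been corrected for background within each array by Agilent Feature Extraction 10.5.1.1, per the file headers, and not yet scaled between arrays. A deposited table of log2 values, quantile-normalized by the authors for 14949 probes, served as an alternative.

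Intensities were taken to log2. Control spots (536 of 15715) and spots that the scanner software marked as uneven or as outliers were dropped, which removed 4 to 22 probes on an array but 233 on the third 24 d array. Spots of a probe were averaged and the arrays quantile-normalized. All 18 arrays entered the fit in limma 3.58.1 (statmod 1.5.0, R 4.3.3), with a mean for each time, and limma's moderated test of 24 d minus 6 d was adjusted by Benjamini-Hochberg over 14956 probes, with a threshold of 0.05. The number of arrays, 3 a time, limits the precision. Replicates are separate pools of plants.

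Named genes are up to 15 called rises and 15 called falls that carry a name, pass background on all arrays of 1 time and do not overlap, filled up by smallest unadjusted p, with called members and up to 4 others of each list, and genes the study names. Matches with an e-value above 1e-05 gave no name. The 29 lists, markers included, hold 458 probes, and 1092 probes have a name. Members and lists were chosen with earlier results of these data known. The fit was tested on simulated data. Alternatives were other scalings, the value table, normexp on the median signal (offset 50), flagged spots kept, a filter on dim probes, slide and replicate blocks, each array left out, other priors and thresholds, and the ANOVA with Tukey's test named in the methods.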

Additional observations from a re-analysis of the deposited data

How the results depend on the processing

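All 38 calls kept their direction in the alternatives that tested them, 36 of 36 with dim probes left out, but their number depended on the setting. In many of these alternatives the direction could not turn. The arrays of the times compared did not overlap for any of the 38, so leaving out an array could not turn the difference. Another prior, the filter on dim probes or the 6 arrays alone left the difference unchanged. The direction was free to turn with other scalings, the value table, normexp or slide as a block. No probe was called (0 in all, 0 higher, 0 lower, and 0 and 0 list members higher and lower) with scaling to the 75th percentile, with no normalization between arrays, with slide as a random block, with the replicate block or with only the 6 arrays compared, where the lowest adjusted p were 0.068, 0.169, 0.058, 0.066 and 0.0512 and 2137, 1634, 2027, 2257 and 2496 probes had an unadjusted p under 0.05. The value table gave 22 calls, 5 of them higher, with 0 list members higher. Normexp gave 159 (78 higher, 81 lower, and 6 list members higher and 13 lower), the filter on dim probes 103 (43 higher, 60 lower, with 2 and 7 list members) and a trended and robust prior 118 (49 higher, 69 lower, with 2 and 12 list members). A 2-fold threshold left 21 (9 higher, 12 lower), an unadjusted p under 0.05 gave 2381 (1207 higher, 1174 lower), and the ANOVA with Tukey's test that the methods name gave 665 (302 higher, 363 lower). Slide as a fixed block called 6 (3 higher, 3 lower), with 0 list members lower and 0 shared with the 38. The causes were not tested.

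Leaving out 1 array gave 0 to 135 calls, 0 to 59 higher and 0 to 76 lower, with 0 to 7 list members higher and 0 to 9 lower. The count was 0 without replicate 2 of 6 d or without any array of 24 d, 1 and 6 without replicates 1 and 3 of 6 d, 1, 4 and 2 without replicates 1, 2 and 3 of 0 d, 31, 135 and 3 for 12 d, 0, 2 and 18 for 15 d, and 57, 3 and 4 for 18 d. The replicate numbers do not pair the arrays, since deviations of arrays with the same number correlated at -0.04, 0.02 and -0.19.

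Slide as a fixed block moved or turned these list medians: gibberellin receptors and signalling -0.29, gibberellin response -0.18, DNA replication -0.80, proteasome -0.26, glycolysis -0.057, citrate cycle and respiration 0.00052, cell wall -0.18, AP2 and ERF factors 0.54, MYB factors 0.38, cold and dehydration 0.10, shoot apex markers 0.32 and flowering MADS-box markers -0.0072, the last being 2.27 with dim probes left out. It also gave 0.03 for ribosomal proteins and 0.11 for photosynthesis. With no normalization the medians were -0.30 for heat shock proteins, -0.21 for the cell wall, 0.045 for ethylene, abscisic acid and auxin and 0.0063 for splicing. Leaving out 1 array gave 0.53 to 0.86 for gibberellin synthesis, -0.54 to -0.33 for the cytoskeleton, -0.48 to -0.31 for heat shock proteins, -0.50 to -0.25 for the cell wall, 0.016 to 0.25 for NAC factors, 0.07 to 0.24 for ribosomal proteins, 0.15 to 0.40 for photosynthesis, 0.10 to 0.39 for green tissue markers and -0.069 to 0.60 for phenylpropanoid enzymes.

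Among single genes, none of the 11 called and named turned. With 1 array left out they could not turn, since their arrays did not overlap. Slide as a fixed block turned the difference of ICE1 (1.56), KAN2 (1.56), HOS15 (0.29), PUB14 (0.13), TUB7 (0.10), FAH1 (0.35), a protein phosphatase (0.22), TUB6 (0.41), CAT1 (0.37), CYCD2;1 (0.12), MAB1 by both probes (0.066 and -0.16), GID1A (-0.55), RPT1A (-0.10), NAC017 (-0.063), AT3G23600 (-0.16), AT3G02360 (-0.16), AT2G20360 (-0.011), POM1 (-0.12), cinnamoyl CoA reductase (-0.25), PFK3 (-0.17) and AMY2 (-4.02). With no normalization RGA2 was at 0.060 and RGL1 at 0.13, and with the 75th percentile RGL1 was at 0.034. With 1 array left out, the difference of RGA2 ran from -0.24 to 0.27 and that of RGL1 from -0.20 to 0.17, that of MAB1 (CUST_7515) from -0.013 to 0.11, those of the NAC probes CUST_1112 and CUST_13179 from -0.051 to 0.16 and from -0.0056 to 0.85, and that of GR1 from -0.017 to 0.12. RGA2 was at 0.27 and RGL1 at 0.17 without replicate 1 of 24 d, and RGL1 at 0.09 and 0.08 without replicates 2 and 3 of 6 d.

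At 3 arrays a time the median standard error was 0.27, and a probe that missed the threshold is not shown to be level between the times.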
